A study of Mus musculus with 20 samples.

Results

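The genes described here are 8 readouts of antigen-presenting cells in sorted mouse dorsal epidermis: the class II chains H2-Aa, H2-Ab1 and H2-Eb1, the invariant chain Cd74, the class II transactivator Ciita, and the Langerhans and myeloid surface genes Cd207, Csf1r and Itgax. They were taken by gene name from the table of 53380 genes, whatever their values, and all 8 passed the filter that left 17204 genes for testing. RNA was sequenced from 20 libraries of 5 populations: 4 of hair follicle stem cells (HFSCs; CD34+ScaI-), 5 of dendritic epidermal T cells (DETCs; Thy1+ScaI-), 4 of basal keratinocytes high in Thy1 (Thy1hi; Thy1+ScaI+), 4 of basal keratinocytes without it (Thy1neg; Thy1-ScaI+) and 3 of keratinocytes that carry both Thy1 and the YFP reporter (Thy1hiYFP). None of the sorted fractions was a Langerhans cell fraction.

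The labels give all 20 libraries the genotype Thy1.2CreERT2-Rosa26-EYFP, untreated, while the study's methods describe wild-type C57BL/6J mice for the 4 populations without the reporter and an induced reporter line, in which a Thy1 promoter drives the recombinase, for the YFP cells. The design text gives mice of 8 weeks, whereas the age label rises by a week from sample to sample, from 8 to 27 weeks. The YFP cells are ScaI- in their cell type label and ScaI+ in the methods. Mice were pooled for sorting. The libraries were made in separate batches and with different library kits, and the labels assign neither to samples. Batch, kit and population therefore cannot be told apart. No label ties a replicate to an animal, and p-values measure the spread between these libraries. Between 7781256 and 12982393 reads fell on genes.

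MHC class II molecules are heterodimers of an alpha and a beta chain that present peptides to CD4+ T cells. The invariant chain chaperones the new heterodimer to the endosome, where proteases such as cathepsin S degrade it, and the transactivator CIITA drives transcription of the class II genes together with the RFX factors bound at their promoters. Langerhans cells are the resident antigen-presenting cells of the epidermis. They carry langerin (Cd207), a C-type lectin, and depend on the receptor Csf1r and on its ligand IL-34, which keratinocytes make.

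The promoters of class II genes hold an X box, bound by RFX, and a Y box, an inverted CCAAT box, a short distance apart. RefSeq promoter sequences (GRCm38.p6, 250 bases before to 50 after the start) were at hand for 4 of the 8 genes, H2-Aa, H2-Eb1, Cd207 and Itgax. The letters GCAAC of the X box and TGATTGG of the Y box were searched on both strands, and the motifs share no position where both were found. These windows are shown because they hold both cores, in capitals, in 2 class II members and in H2-Eb2, a related beta chain gene whose RNA was nearly absent here. They are chr17:34287847-34287924 on the minus strand for H2-Aa, chr17:34305756-34305832 on the plus strand for H2-Eb1 and chr17:34325523-34325599 on the plus strand for H2-Eb2.
H2-Aa: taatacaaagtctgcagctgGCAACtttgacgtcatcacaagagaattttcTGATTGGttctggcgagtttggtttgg
H2-Eb1: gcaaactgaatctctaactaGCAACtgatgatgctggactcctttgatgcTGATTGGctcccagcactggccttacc
H2-Eb2: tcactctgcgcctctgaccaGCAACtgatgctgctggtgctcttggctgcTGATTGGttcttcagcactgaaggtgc
The cores lie 26 bases apart in H2-Aa and 25 in both beta chain genes. The X core occurred in 35.2% of the 32851 promoters of this length and the Y core in 7.82%, each counted with or without the other. The X core followed after 10 to 40 bases by the Y core occurred in 0.289%. The accessory class II genes H2-Oa and H2-Ob also held both, whereas H2-DMb1 and H2-DMb2 held only the Y core, H2-DMa only the X core in 1 of its 2 listed promoters and neither in the other, Itgax only the X core, and Cd207 neither. The highest level of H2-Eb2 in any library was 3.99 normalized counts (reads divided by a size factor per library), against up to 646 for H2-Eb1, so that the same letters stood before a gene with RNA and a gene nearly without it.

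The 3 class II chain genes lie next to each other on chromosome 17 of mm10: H2-Ab1 at 34263209 to 34269418, H2-Aa at 34282744 to 34287827 and H2-Eb1 at 34305877 to 34316199. Cd74 and Csf1r are on chromosome 18, Ciita is on 16, Cd207 on 6 and Itgax on 7. Per kilobase of exon (GENCODE vM21, whose release may differ from the one used for the table), the mean level in Thy1neg cells was 433 for Cd74, 255 for H2-Ab1, 158 for Cd207, 139 for H2-Aa, 119 for H2-Eb1, 16.3 for Csf1r, 3.73 for Ciita and 2.67 for Itgax. Cd74 and H2-Ab1 thus led on this scale in Thy1neg cells, and the transactivator and Itgax were the lowest.

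RNA of the class II and Langerhans cell genes was found in all 5 populations, and HFSC replicate 4 stood far below every other library for the 3 chains, Cd74, Cd207 and Csf1r. Cd74 had 944, 1869, 1405 and 20.3 normalized counts in HFSC replicates 1 to 4, and 856, 1257, 796, 447 and 1098 in the 5 DETC libraries. It had 507, 831, 359 and 754 in Thy1neg cells, 209, 503, 217 and 527 in Thy1hi cells, and 320, 422 and 249 in Thy1hiYFP cells. The first 3 HFSC libraries were thus at or above the middle of the DETC range, and the Thy1hi and Thy1hiYFP libraries overlapped each other. In bulk libraries, fewer cells of a type and less RNA per cell cannot be told apart.

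Cd207 had 424, 958, 554 and 1.40 normalized counts in the HFSC libraries and 329, 569, 338, 177 and 444 in the DETC libraries. It had 170, 314, 183 and 295 in Thy1neg cells, 106, 216, 104 and 217 in Thy1hi cells, and 128, 232 and 109 in Thy1hiYFP cells. Langerin RNA was therefore present in libraries sorted as keratinocytes and as T cells, in the same order of populations as Cd74. H2-Ab1, the beta chain of the A molecule, had 444, 1023, 714 and 28.7 in HFSCs, 435, 573, 444, 213 and 477 in DETCs, 249, 347, 189 and 451 in Thy1neg cells, 85.0, 231, 128 and 218 in Thy1hi cells, and 179, 259 and 122.9 in Thy1hiYFP cells. H2-Aa, its partner, had 197, 413, 339 and 9.81 in HFSCs, 179, 310, 169, 63.1 and 181 in DETCs, 140, 172, 110 and 203 in Thy1neg cells, 33.1, 98.8, 45.5 and 119 in Thy1hi cells, and 47.9, 86.7 and 32.7 in Thy1hiYFP cells. For both chains the Thy1neg libraries overlapped those of DETCs and of Thy1hi cells.

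H2-Eb1, the beta chain of the E molecule, ranged from 381 to 646 in HFSC replicates 1 to 3, 176 to 406 in DETCs, 121 to 252 in Thy1neg cells, 90.5 to 204 in Thy1hi cells and 78.8 to 189 in Thy1hiYFP cells. Csf1r, the receptor for IL-34 and CSF-1, ranged over the same libraries from 106 to 282, 50.8 to 200, 43.4 to 126, 30.9 to 84.3 and 24.9 to 71.2. Both kept the order seen for Cd74. Ciita was low and did not: it ranged from 13.9 to 72.8 in HFSC replicates 1 to 3, 14.7 to 93.7 in DETCs, 10.7 to 59.0 in Thy1neg cells, 15.4 to 32.9 in Thy1hi cells and 4.98 to 34.1 in Thy1hiYFP cells. Itgax, the integrin CD11c, was at 15.0 to 43.4, 6.86 to 40.1, 6.31 to 14.6, 5.27 to 7.32 and 0 to 13.2 normalized counts in the same order, and its counts were too low to separate the keratinocyte populations at this depth.

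**Figure D1:**
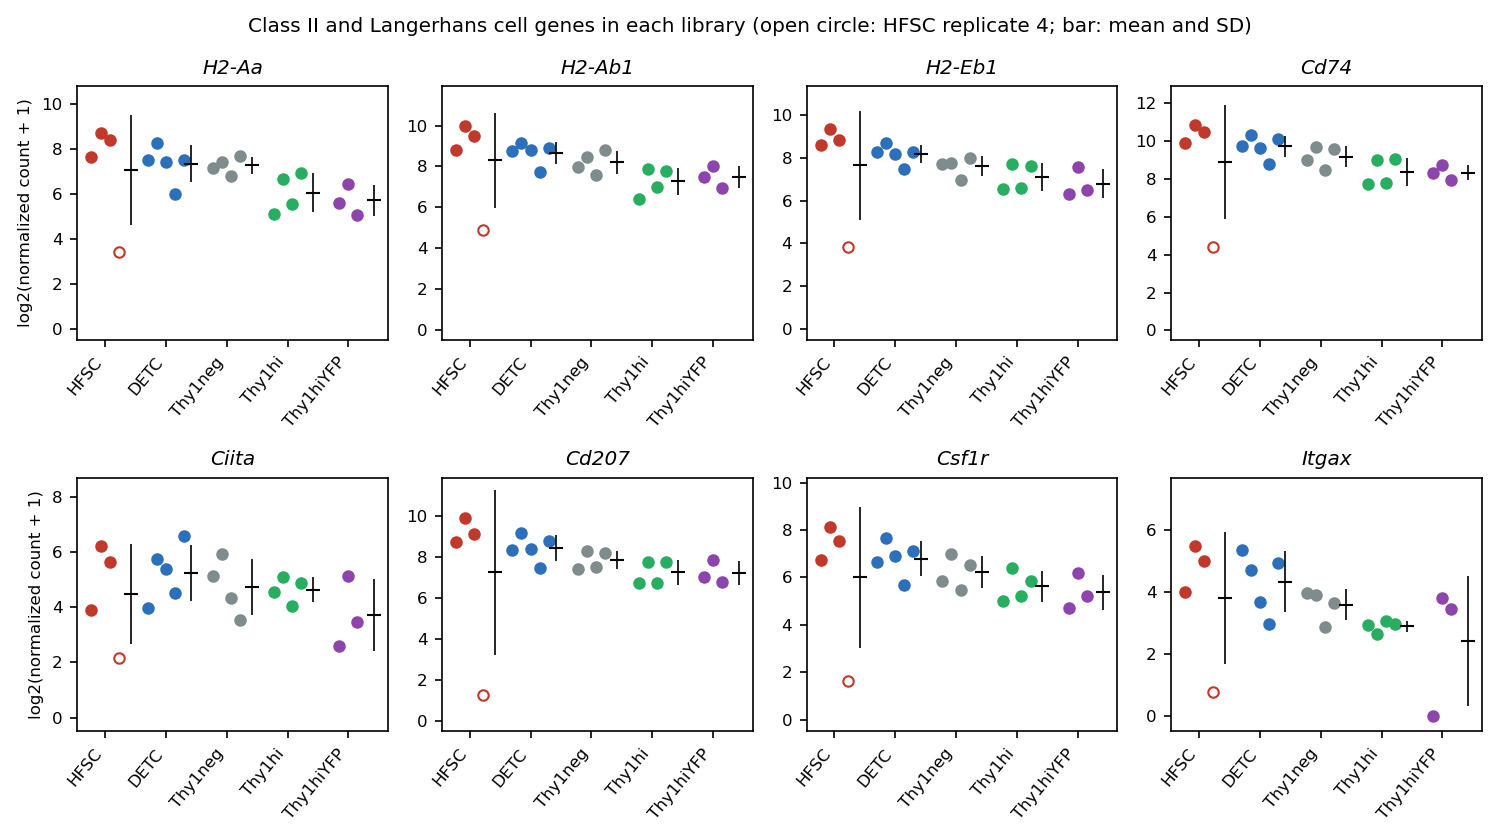
Each panel plots log2(normalized count + 1) of 1 gene for the 20 libraries, grouped by population, with the mean and SD of each population as a bar. HFSC replicate 4 (open circle) lies at 1.40 normalized counts of Cd207 and 20.3 of Cd74, below every other library of these 2 genes.

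The members moved together from library to library. Leaving out HFSC replicate 4, Cd74 spanned an 8.96-fold range over the other 19 libraries and H2-Ab1 a 12.0-fold range, but their ratio within a library stayed between 0.407 and 0.615, a 1.51-fold range. Cd207 spanned 9.21-fold, and its ratio to Cd74 lay between 0.336 and 0.551, with a median of 0.424. The ratio of Csf1r to Cd74 lay between 0.0779 and 0.169, and that of H2-Aa spanned 2.34-fold. For Ciita the ratio spanned 7.49-fold, from 0.0141 to 0.106, and for Itgax it went from 0 to 0.0469. Cd207 and Cd74 thus stayed in proportion within a 1.64-fold range in libraries sorted as stem cells, keratinocytes and T cells.

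Over the 20 libraries, Pearson's r of log2 values with the mean of the 3 chains and Cd74 was 0.953 for Cd207, 0.976 for Csf1r, 0.793 for Itgax and 0.723 for Ciita. Spearman's rho was 0.956, 0.947, 0.845 and 0.600. Without the 2 libraries farthest from the median, r was 0.977, 0.947, 0.688 and 0.538. These are descriptions over libraries that share populations and pooled mice, and the 4 genes in the mean enter their own reference.

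**Figure D2:**
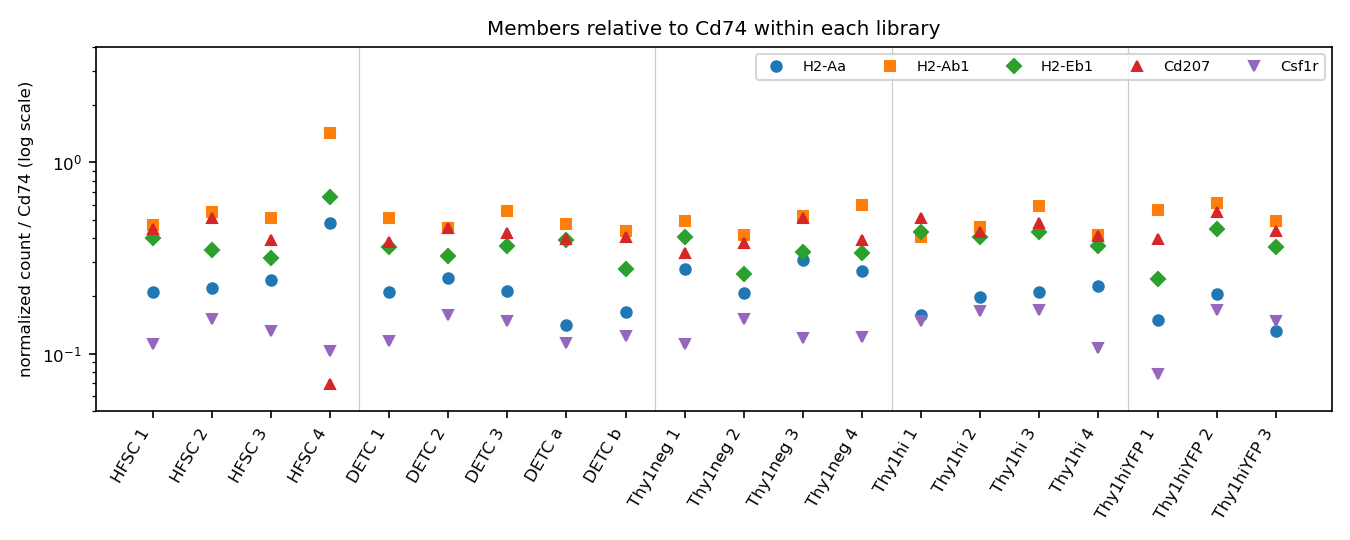
The ratio of the normalized count of H2-Aa, H2-Ab1, H2-Eb1, Cd207 and Csf1r to that of Cd74 in the same library is plotted on a log axis for the 20 libraries. H2-Ab1 lies between 0.407 and 0.615 and Cd207 between 0.336 and 0.551 in 19 libraries, and HFSC replicate 4 lies apart at 1.41 and 0.0689.

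HFSC replicate 4 lacked most of this RNA. It had 2 reads of Cd207, which is 1.40 normalized counts with an exact 95% Poisson interval of 0.170 to 5.06, against 424 in the lowest other HFSC library. It had 29 reads of Cd74 (20.3 normalized counts, interval 13.6 to 29.2), 41 of H2-Ab1, 19 of H2-Eb1, 14 of H2-Aa, 5 of Ciita, 3 of Csf1r and 1 of Itgax. Such intervals cover counting error only. The Cd207 level was 0.331% of that in the lowest other HFSC library, whereas those of Cd74, H2-Eb1, H2-Aa and H2-Ab1 were 2.15%, 3.49%, 4.97% and 6.47%, larger shares than that of langerin. Csf1r was at 1.98%, Itgax at 4.66% and Ciita, which fell least, at 25.3%.

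Of 8655 genes at 50 or more normalized counts in each of the other 3 HFSC libraries, 90 (1.04%) were below 10% of the lowest of them in replicate 4, and all 6 members at that level were among them. Immediate-early genes also fell in this library. Fos, a subunit of AP-1, had 12337 to 13931 in replicates 1 to 3 and 399 in replicate 4, and Atf3 had 11529 to 14338 and 210. Within replicates 1 to 3 they did not follow the members: both were lowest in replicate 2, where Cd74 and Cd207 were highest. The pan-leukocyte gene Ptprc (CD45) had 103 to 120 and 24.5, and Krt5, a basal keratin, had 37535 to 43698 and 16239. Of the T cell receptor complex, the chain Cd3e had 43.9 to 75.9 and 14.0. Cd3d, another chain, went the other way, at 25.7 to 44.5 and 87.6. Cd34, on which the cells were sorted, was at 2032 in replicate 4, within its range of 1600 to 2622 in the others. The part of these differences in the result was not tested, and each comparison of the members with HFSCs is therefore given with and without this library.

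No member passed an adjusted p of 0.05 in any of the 8 comparisons when all 20 libraries were fitted together with limma, and none had an unadjusted p under 0.05. The share of all 17204 tested genes that passed was 0.337% for Thy1hi against Thy1neg cells, 13.4% for Thy1hi cells against HFSCs, 6.08% for Thy1neg cells against HFSCs, 36.6% for DETCs against Thy1hi cells, 34.1% for DETCs against Thy1neg cells, 39.7% for DETCs against HFSCs, 0.0116% for Thy1hiYFP against Thy1hi cells and 0.761% for Thy1hiYFP against Thy1neg cells. On the recovered reads, edgeR called 0 members in all 8, with an unadjusted p under 0.05 for 7 in Thy1hi cells against HFSCs and 2 in DETCs against Thy1hi cells. DESeq2 called 2 in each of these comparisons, where 10.5% of all tested genes were lower in Thy1hi cells than in HFSCs and 20.8% higher in DETCs than in Thy1hi cells, and 0 elsewhere. The shared estimate of the spread rests in part on HFSC replicate 4: for Cd207 the SE of the Thy1hi against Thy1neg difference was 1.14 on the log2 scale with it in the fit and 0.36 without it.

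The comparison of Thy1hi with Thy1neg cells asks whether the Thy1 gate within the basal layer changes the level of antigen-presenting cell RNA. The labels give no pairing, and the numbers were taken as pairs from these same libraries. Paired by replicate number, 4 of the 8 members were lower in Thy1hi cells and none was higher, where 3.19% of all tested genes were lower. These were H2-Aa, at a log2 fold change of -1.22 ± 0.22 (SE; limma with replicate block, adjusted p = 0.0096), H2-Ab1 at -0.93 ± 0.17 (adjusted p = 0.0104), Cd74 at -0.81 ± 0.13 (adjusted p = 0.0057) and Cd207 at -0.62 ± 0.13 (adjusted p = 0.0185). Fold changes are on the log2(value + 1) scale throughout. H2-Eb1 at -0.51 (adjusted p = 0.136), Csf1r at -0.59 (0.115), Itgax at -0.69 (0.379) and Ciita at -0.10 (0.920) did not pass. In a fit of the same 2 populations without the pairing, the adjusted p-values were 0.229 for H2-Aa, 0.336 for H2-Ab1, 0.458 for Cd74 and 0.542 for Cd207, and H2-Aa and H2-Ab1 had an unadjusted p under 0.05. In the fit of all 20 libraries they were 0.908, 0.969, 0.999 and 0.999.

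The values show where the pairing acts. Cd74 was 209 and 507 in replicate 1 of Thy1hi and Thy1neg cells, 503 and 831 in replicate 2, 217 and 359 in replicate 3, and 527 and 754 in replicate 4, lower in Thy1hi cells in 4 of 4 pairs, while the 2 groups of libraries overlapped for this and every other member, and 3.17% of all tested genes were separated with Thy1hi cells lower. The two-sided exact permutation p of the unpaired difference was 0.143 for Cd74 and 0.0571 for H2-Aa, where 4 against 4 libraries cannot go below 0.0286. The median over the 8 members was -0.65, against -0.02 over all tested genes. Of the keratinocyte genes, 5 of 6 were higher in Thy1hi cells in the paired fit, where 3.42% of all tested genes were, with Krt14 and Krt5 each at 1.11. Of 6 T cell markers 1, Cd3e, was higher at 1.14 (limma with replicate block, adjusted p = 0.0464), while the other 5 lay between -0.19 for Cd3d and 0.50 for Cd2 and did not pass.

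The comparisons with HFSCs turned on HFSC replicate 4. It was left out after these members were seen to be low in it, so p-values without it depend on that choice. With all libraries, the log2 fold change of Thy1hi cells from HFSCs was -0.53 ± 0.89 (SE) for Cd74 and ranged over the members from -1.03 to 0.16. Without replicate 4 it was -2.03 ± 0.39 for Cd74 (limma, adjusted p = 0.0016), and 6 of the 8 members were lower in Thy1hi cells, where 6.32% of all tested genes were. Those 6 were H2-Aa at -2.20, H2-Ab1 at -2.16, Cd207 at -2.0, Csf1r at -1.85 and H2-Eb1 at -1.82 besides Cd74, with adjusted p-values up to 0.0155, and the largest Thy1hi value was below the smallest of the 3 HFSC values for each of them and for Itgax. Libraries of 14.5% of all tested genes were separated in this direction. Itgax at -1.93 (adjusted p = 0.0981) and Ciita at -0.61 (0.608) did not pass. The exact permutation p for Cd74 was 0.0571, the smallest that 4 against 3 libraries allow.

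For Thy1neg cells against HFSCs, the fold change of Cd74 was 0.28 ± 0.89 with all libraries and -1.22 ± 0.39 without HFSC replicate 4. In the smaller fit Cd207, at -1.39 (limma, adjusted p = 0.0410), and H2-Eb1, at -1.31 (adjusted p = 0.0369), were lower, where 3.98% of all tested genes were. Cd74 (adjusted p = 0.0686) and H2-Ab1 at -1.23 (0.0714) did not pass, and the other 4 members had adjusted p-values of 0.125 or more. The Thy1neg libraries lay below all 3 HFSC libraries for H2-Eb1, Cd74, Cd207 and Itgax, as they did for 12.6% of all tested genes.

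For DETCs against HFSCs, the direction itself depended on the library. Cd74 was at 0.81 ± 0.84 with all 4 HFSC libraries and at -0.69 ± 0.37 without replicate 4 (limma, adjusted p = 0.147), and the 8 members went from 0.30 to 1.19 with it to -0.90 to -0.00 without it. None of the 8 passed without it, where 19.1% of all tested genes were lower, and 2 had an unadjusted p under 0.05, as 49.1% of all tested genes did in either direction. With edgeR and DESeq2 on those libraries, 0 passed and 3 had an unadjusted p under 0.05 by either tool. The replicate numbers were taken to pair these populations over numbers 1 to 3, although pairs of different numbers reached r of 0.371 against 0.171 to 0.333 for the same number. That pairing leaves out HFSC replicate 4 and the 2 DETC libraries without such a number. In that fit 5 members were lower in DETCs, where 19.6% of all tested genes were: Cd207 at -0.61 (limma with replicate block, adjusted p = 0.0047), H2-Eb1 at -0.53 (0.0099), H2-Ab1 at -0.52 (0.0327), H2-Aa at -0.52 (0.0470) and Cd74 at -0.51 (0.0175). Csf1r at -0.41 (0.0850), Itgax at -0.23 (0.739) and Ciita at -0.21 (0.589) did not pass.

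**Figure D3:**
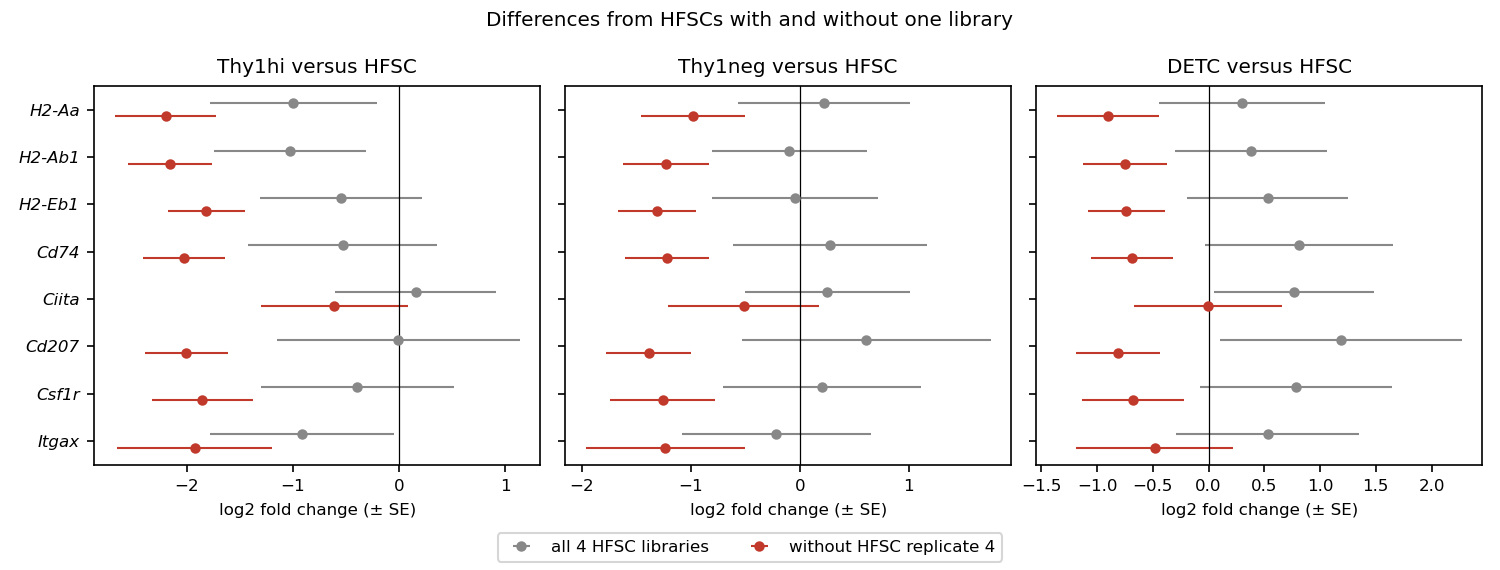
The log2 fold change of each member against HFSCs, with its SE from limma, is plotted with all 4 HFSC libraries (grey) and without HFSC replicate 4 (red). For Cd74 the value moves from 0.81 to -0.69 in DETCs, from 0.28 to -1.22 in Thy1neg cells and from -0.53 to -2.03 in Thy1hi cells.

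DETCs had more of this RNA than Thy1hi cells, and the call depended on which libraries set the spread. The log2 fold change was 1.34 ± 0.84 (SE) for Cd74, 1.41 ± 0.68 for H2-Ab1, 1.29 for H2-Aa, 1.08 for H2-Eb1, 1.19 for Cd207, 1.18 for Csf1r, 1.44 for Itgax and 0.61 for Ciita, with adjusted p-values from 0.116 to 0.572 in the fit of all 20 libraries. In a fit of the 2 populations alone, 7 members were higher in DETCs, where 20.1% of all tested genes were, with adjusted p-values of 0.0069 to 0.0487, and Ciita did not pass (0.385). With HFSC replicate 4 left out of the shared fit, 6 were called, where 21.2% of all tested genes were. The exact permutation p was 0.0476 for Cd74, H2-Ab1, H2-Eb1, Cd207 and Csf1r, 0.0952 for H2-Aa and 0.0317 for Itgax, where 5 against 4 libraries cannot go below 0.0159. The lowest DETC library was within the Thy1hi range for 7 of the 8 members and below it for Ciita, so that no member was separated between the populations, where 18.8% of all tested genes were separated with DETCs higher. For every member but Ciita it was the same library, 1 of the 2 whose number is in no title, which had 447 of Cd74 and also the lowest Krt5 of its population, 3248 against 10499 to 16494, and the highest Ptprc, 16469 against 5863 to 9535.

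For DETCs against Thy1neg cells, the members lay at log2 fold changes of 0.08 for H2-Aa, 0.51 for Ciita, 0.48 for H2-Ab1, 0.53 for Cd74, 0.57 for H2-Eb1, 0.58 for Csf1r, 0.58 for Cd207 and 0.75 for Itgax, and none passed with all libraries or in a fit of the 2 populations alone. For Thy1hiYFP against Thy1hi cells, the values ranged from -0.91 to 0.22, with Cd74 at -0.04 ± 0.96, and its SE was 0.39 without HFSC replicate 4 in the shared fit. None passed in either fit, which does not show that the Thy1hi and Thy1hiYFP populations were alike. Against Thy1neg cells, Thy1hiYFP cells had a median of -0.85 over the members, and H2-Aa, at 32.7 to 86.7 against 110 to 203, was the only member whose libraries did not overlap, where 5.84% of all tested genes did not overlap in this direction.

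Among replicates 1 to 3, which every population has, replicate 2 had the highest value in 5 of 5 populations for 7 of the 8 members, and Itgax did so in 2 of 5. Of all tested genes, 3.10% had replicate 2 highest in all 5. The population order was also the same within numbers 1 to 3. HFSC above DETC, DETC above Thy1neg, and Thy1neg above both Thy1hi and Thy1hiYFP held in each of the 3 numbers for the 3 chains, Cd74, Cd207 and Csf1r, and in 1 of 3 for Ciita and Itgax. Of all tested genes, 0.128% kept this order. Number 4 did not keep it: Cd74 was 20.3 in HFSCs, 754 in Thy1neg and 527 in Thy1hi cells. Both patterns were taken from the members' own values, so the shares of all tested genes are descriptions only. The labels do not say whether a number marks a shared sort or batch, and its part in these levels was not tested.

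**Figure D4:**
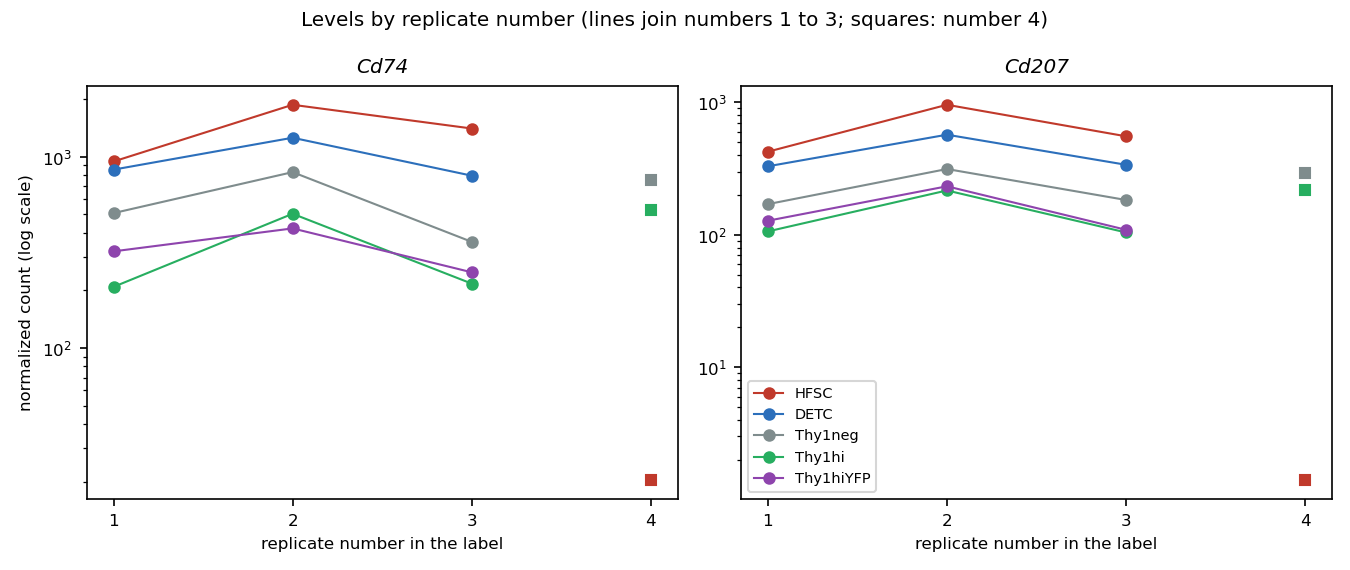
Normalized counts of Cd74 and Cd207 on a log axis are plotted against the replicate number of the labels, a line per population over numbers 1 to 3 and a square for number 4. In all 5 populations the value of number 2 is the highest of numbers 1 to 3, and the HFSC square lies at 20.3 and 1.40.

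The accessory genes of the class II route include those of peptide loading and of transcription. Of 14 listed genes, 11 were tested, and none passed in Thy1hi against Thy1neg cells, 1 was higher in Thy1hi cells than in HFSCs, 2 were lower and 0 higher in DETCs than in Thy1hi cells, and 2 were lower and 1 higher in DETCs than in Thy1neg cells, where the medians over the list were -0.22, -0.08, -0.05 and -0.83 beside -0.02, 0.02, -0.00 and -0.09 over all tested genes. Of all tested genes, 6.51% were higher in Thy1hi cells than in HFSCs. In DETCs 16.6% were lower and 19.9% higher than in Thy1hi cells. Against Thy1neg cells these shares were 15.2% and 18.9%, so the list's counts of 2 lower genes were near the background. With the replicate block 1 of the 11, Lgmn, was higher in Thy1hi than in Thy1neg cells, at 0.66 (limma, adjusted p = 0.0460), and 0 were lower. In that fit 3.42% of all tested genes were higher and 3.19% lower. Ctss, the cathepsin that degrades the invariant chain in antigen-presenting cells, had 36.9, 121, 53.4 and 5.61 in HFSCs, 82.2, 118, 53.0, 35.7 and 66.0 in DETCs, 31.6, 50.9, 23.7 and 44.3 in Thy1neg cells, 15.5, 26.3, 15.4 and 35.9 in Thy1hi cells, and 12.0, 30.2 and 5.94 in Thy1hiYFP cells. Like the chains, Cd74, Cd207 and Csf1r it was lowest in HFSC replicate 4 and lower in the Thy1hi and Thy1hiYFP libraries than in those of DETCs with the same number, but in replicate 1 it was higher in DETCs than in HFSCs. Its log2 fold change of DETCs from Thy1hi cells was 1.54 (limma, adjusted p = 0.0537).

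The protease Lgmn was 1.55 higher in Thy1hi cells than in HFSCs (log2, limma, adjusted p = 0.0151, and 0.0491 without HFSC replicate 4) and 2.15 lower in DETCs than in Thy1hi cells (1.9e-04). Rfx5, a subunit of the RFX complex that binds the X box, was at 105 to 389 in every library and was 0.75 lower in DETCs than in Thy1hi cells (0.0310). H2-DMb1, a chain of the peptide exchange factor DM, was 1.23 lower in DETCs than in HFSCs (0.0398), and 1.67 lower without HFSC replicate 4 (0.0059), where it was also lower in Thy1hi cells than in HFSCs, at -1.61 (0.0301). The modulators H2-Oa and H2-Ob reached 9.61 and 14.2 normalized counts at most, and neither passed the filter.

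Of 24 Langerhans and myeloid markers, 21 were tested. In DETCs 10 were higher and 1 lower than in Thy1hi cells, where 19.9% and 16.6% of all tested genes were. The median log2 fold change of the list was 1.37 beside -0.00 over all tested genes. The largest of the 10 were Fcer1g at 6.36, Cd52 at 4.83, Ccr7 at 3.28 and Cd1d1 at 2.82. Fcer1g, a signalling chain, and Cd52 are also expressed by T cells, so the list is not particular to antigen-presenting cells in a T cell sort. Ly75 (DEC-205), an endocytic receptor of dendritic cells, was higher in DETCs than in Thy1hi cells by 1.76 (limma, adjusted p = 0.0089) but its difference from HFSCs, 1.54 (0.020) with all libraries, was 1.06 and did not pass without HFSC replicate 4 (0.0895). None of the 21 passed between Thy1hi and Thy1neg cells, where their median was -0.27.

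Macrophage and mast cell markers were low in all 20 libraries. Of 7 macrophage markers none exceeded 17.0 normalized counts in any library and none passed the filter, and their sum ranged from 5.82 to 35.6 in Thy1hi, 12.3 to 42.8 in Thy1neg, 10.8 to 21.4 in DETC, 4.90 to 36.9 in HFSC and 9.97 to 27.9 in Thy1hiYFP libraries. The complement gene C1qa, a macrophage marker, was at 15.2 at most. The sum of 5 mast cell markers lay between 0 and 7.76, with Cpa3 at 0 reads in all 20 libraries. Of the broader myeloid genes, Lyz2 and Aif1 were at 4.86 and 4.12 at most, whereas Itgam reached 26.8, Adgre1 30.4, Cd68 83.7 and Sirpa 458. Single macrophage and mast cell markers thus reached 17.0 and 3.95 at most, in libraries in which Cd74 reached 1869 and Cd207 reached 958. The members Itgax and Ciita were also low in places, with Itgax at 5.27 to 7.32 in Thy1hi and Ciita at 4.98 to 34.1 in Thy1hiYFP cells. At such levels the presence or absence of a cell type cannot be read from these markers.

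Of 7 dermal dendritic cell markers, Clec9a, Cd209a and Clec10a reached 9.60, 5.27 and 6.62 normalized counts. Xcr1 reached 22.0, Zbtb46 48.8 and Batf3 93.9, the last in a DETC library. Without HFSC replicate 4, Xcr1 was higher in Thy1neg cells than in HFSCs by 2.06 (log2, limma, adjusted p = 0.0198). Zbtb46, Batf3 and Itgae did not pass in that comparison. The library left out had 11.2 of Xcr1, against 2.14 to 5.77 in the other HFSC libraries and 10.7 to 22.0 in Thy1neg cells, so leaving it out enlarged this difference. In the same setting DETCs were also higher than HFSCs for Xcr1, at 1.86 (0.0046), Zbtb46 at 1.35 (0.0190), Batf3 at 4.52 (4.2e-05) and Itgae at 5.77 (3.7e-09), where 3645 of 17204 tested genes were higher. The sum of the 7 markers was 1874 to 4185 in DETCs and 30.8 to 116 in the other populations. In DETCs Itgae, an integrin that DETCs themselves carry, reached 4028.

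T cell and pan-leukocyte markers marked the DETCs. The 6 markers summed to 11210 to 19620 in DETCs, 137 to 227 in HFSCs, 157 to 266 in Thy1hi, 148 to 246 in Thy1neg and 78.7 to 129 in Thy1hiYFP libraries, and all 6 were higher in DETCs in each of the 3 comparisons of DETCs. Of 17204 tested genes, 3425, 3250 and 3644 were higher in DETCs than in Thy1hi cells, Thy1neg cells and HFSCs. Of 8 pan-leukocyte genes, 7 were higher and 0 lower in DETCs than in Thy1hi cells. The sums of the 6 keratinocyte markers ran from 11940 to 56890 in DETCs and from 70920 to 265800 in the other libraries. Over the 20 libraries r with the mean of the chains and Cd74 was 0.414 for Ptprc, 0.423 for Cd3e, -0.135 for Krt5 and -0.158 for Krt14. Without HFSC replicate 4 these values were 0.34, 0.415, -0.359 and -0.527. By deviations from population means they were 0.699, 0.66, 0.543 and 0.584, and without that library 0.0824, 0.364, 0.325 and 0.263. The values for the keratins and Ptprc thus depended on that library and on the measure.

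**Figure D5:**
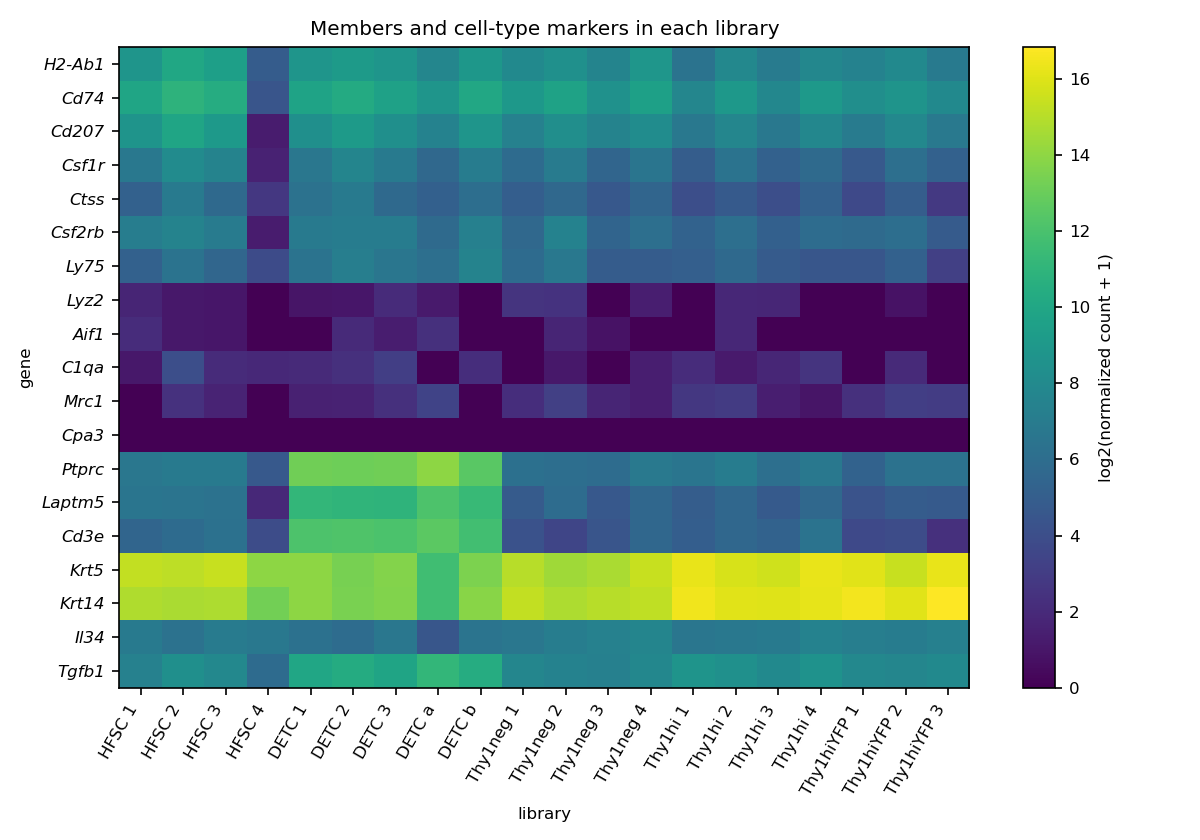
Colour gives log2(normalized count + 1) of members and cell-type markers (rows) in the 20 libraries (columns). Cd74, Cd207, Csf1r and Ctss have signal in every population and fall in HFSC replicate 4, Ptprc and Cd3e are high in the 5 DETC libraries, and Lyz2, Aif1 and Cpa3 stay at or below 4.86 normalized counts.

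Outside the members, the genes whose log2 values ran closest to the mean of the chains and Cd74 over 20 libraries were Csf2rb (r = 0.938), Cd83 (0.935), Tnfaip2 (0.924), Ctss (0.905), F830045P16Rik (0.885), Tbc1d4 (0.877), Csf2rb2 (0.869), Mfge8 (0.859), Plxnc1 (0.859) and Sema7a (0.855). Csf2rb is the shared receptor chain for GM-CSF, IL-3 and IL-5, and Cd83 is a surface marker of mature dendritic cells. Without HFSC replicate 4 these values were between 0.746 for Csf2rb2 and 0.945 for Mfge8. Csf2rb had 129 to 181 in HFSC replicates 1 to 3 and 1.40 in replicate 4, 56.3 to 161 in DETCs, 42.6 to 174 in Thy1neg cells, 34.1 to 71.1 in Thy1hi cells and 27.7 to 67.3 in Thy1hiYFP cells. Mfge8, a secreted glycoprotein that binds dying cells, had 601 to 1059 and 90.4 in HFSCs, 280 to 533 in DETCs and 87.2 to 240 in Thy1hi cells.

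By the deviations of libraries from their population means, the 10 closest genes were Tnfaip2 (r = 0.956), Csf2rb (0.954), Cd83 (0.951), Mfge8 (0.950), Frat2 (0.949), Fam110a (0.934), Plxnc1 (0.932), Pim3 (0.928), Rhob (0.928) and Ctss (0.923). Without HFSC replicate 4 they lay between 0.571 for Pim3 and 0.896 for Ctss, so the rank of several rests on that library. Frat2 and Pim3, with r of 0.682 and 0.690 over the 20 levels, had 0.167 and 0.200 without it.

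The ligands of Csf1r and other growth factors of Langerhans cells were read from a list of 13 genes. Il34, the ligand of Csf1r that keratinocytes make, was at 79.3 to 126 in HFSCs, 22.0 to 99.6 in DETCs, 100.9 to 202 in Thy1neg cells, 98.2 to 179 in Thy1hi cells and 132 to 158 in Thy1hiYFP cells. It was lower in DETCs than in Thy1hi cells by 0.96 (log2, limma, adjusted p = 0.0267) and than in Thy1neg cells by 1.24 (0.0063), opposite in sign to its receptor's values of 1.18 and 0.58. Csf1, the other ligand, was lower in DETCs than in Thy1hi cells by 1.15 (0.0040). Tgfb1, which Langerhans cells need to stay in the epidermis, was higher in DETCs than in Thy1hi cells by 1.90 (1.8e-04), and Flt3l by 2.61 (4.3e-04). Csf2, the gene of GM-CSF, had 17.6 to 33.6 in DETCs and 0 to 9.29 in the other populations. Of the 13 genes, all tested, 4 were higher and 5 lower in DETCs than in Thy1hi cells, where 19.9% and 16.6% of all tested genes were. In Thy1hi cells 2 were higher and 0 lower than in HFSCs, where 6.51% of all tested genes were higher.

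The interferon-gamma route, which can induce Ciita, was followed from the ligand on. Ifng was at 1.20 to 18.6 in the 5 DETC libraries and at 3.31 or less in the others, and it was not tested because too few libraries reached the minimum. Ifngr1 was higher in DETCs than in Thy1hi cells by 1.16 (log2, limma, adjusted p = 4.8e-04) and in Thy1hi cells than in HFSCs by 1.31 (0.0010), or 1.21 without HFSC replicate 4 (0.0041). Ifngr2 was higher in DETCs than in Thy1hi cells by 2.10 (2.5e-08). Of 9 listed genes 8 were tested. In DETCs 4 were higher and 0 lower than in Thy1hi cells, where 19.9% of all tested genes were higher and 16.6% lower. In Thy1hi cells 4 were higher and 0 lower than in HFSCs, where 6.51% of all tested genes were higher. Without HFSC replicate 4 the latter count was 3, where 5.16% of all tested genes were higher, as Jak1 did not pass (0.111), and Irf1 went from 1.95 (0.0284) to 0.97 (0.0110). Ciita passed in none of the fits run in any comparison.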

How the data were processed

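Gene reads of 20 sorted epidermal libraries were aligned with STAR to mm10 and counted with featureCounts, per the labels, and the authors normalized them with DESeq2. The deposited signal is normalized counts per gene. Whole reads (deviation up to 0.02) were recovered for all 20 libraries, as the values are reads divided by 1 size factor, 0.729 to 1.43. In 1 column, Thy1neg replicate 4, the authors' values follow gene names sorted without hyphens, and 3212 genes were put back in place. H2-Eb1 was the only member moved, from 99.2 to 252 normalized counts. At the genes moved and tested, r with the other Thy1neg libraries was 0.935 after and 0.0563 before. How reads shared between related class II genes were counted is not given in the sources used here. The ribosomal repeat Rn45s held 13.1% to 41.5% of reads, least in HFSC replicate 4.

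Genes at 10 or more in 3 or more libraries were tested with limma 3.58.1 (with its trend option) after adding 1 and taking log2, in a single two-sided model with a mean for each population, with Benjamini-Hochberg adjustment over 17204 genes and a threshold of 0.05. edgeR 4.0.16 and DESeq2 1.42.0 were run on recovered reads, and scipy 1.17.1 gave exact permutation tests. Other alternatives changed the pseudocount, filter, scaling, column order, libraries and pairing. The fits were tested on simulated data.

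Replicate numbers were taken to pair 2 populations where every same-numbered pair of libraries deviated from its population means with r over 0.1 across genes: Thy1hi with Thy1neg (0.293 to 0.716, 4 pairs) and DETC with HFSC (0.171 to 0.333, 3 pairs). Pairs of different numbers ranged from -0.651 to 0.514 and from -0.318 to 0.371 in these comparisons. The rule was applied to these same libraries, so it does not show that the numbers mark pairs. The labels do not say what the numbers share. The columns of 2 DETC libraries, a and b, carry numbers found in no title, and count as unnumbered replicates.

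Named genes were the 8 members, genes of fixed lists that passed in a comparison (up to 4 a list by size), 14 further genes of these lists fixed by name, and the 10 genes most like the class II mean by each measure. Fos, Atf3, Cd34, Cd3d, Itgae, Xcr1, Zbtb46, Batf3 and the genes named for levels near 0 were chosen after their values were seen. Members and lists were chosen with earlier results of these data known. The result of 1 marker list is not reported here.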

Additional observations from a re-analysis of the deposited data

Results flagged for a closer look

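In 4 of 32 sets of libraries (8 members in the 4 populations with 4 or 5 libraries), the lowest library lay farther from its neighbour on the log2(value + 1) scale than Dixon's 95% critical value allows. For a single set, chance alone flags about 1 in 20. The sets are not independent, because the members share libraries and moved together, so the 4 flags cannot be set against that rate. The flags of Cd207, Cd74 and H2-Eb1 were all HFSC replicate 4, a library already seen to be low. Cd207 had 1.40 normalized counts in HFSC replicate 4 against 424 to 958 in the others, with a gap of 0.864 of the range. Cd74 had 20.3 there against 944 to 1870 (0.847), and H2-Eb1 had 13.3 against 381 to 646 (0.862). H2-Ab1 had 213 in DETC library a, whose number is in no title, against 435 to 573 in the other 4 (0.723).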

How the results depend on the processing

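The number of members called was 0 in all 8 comparisons with all 20 libraries in 1 limma fit, and stayed 0 with a pseudocount of 0.1 or 10, no filter or a mean of at least 50, rescaled or quantile-normalized libraries, the deposited column order and edgeR. It became 6 for Thy1hi cells against HFSCs and 2 for Thy1neg cells against HFSCs without HFSC replicate 4 (6.32% and 3.98% of all tested genes lower). Every other fit that left out 1 library gave 0, so these counts ranged from 0 to 6 and from 0 to 2. DESeq2 called 2 for Thy1hi cells against HFSCs (10.5% of all tested genes lower) and 2 for DETCs against Thy1hi cells (20.8% higher). Fits of the 2 populations alone called 7 for DETCs against Thy1hi cells (20.1% of all tested genes higher). Fits without HFSC replicate 4 were chosen after seeing the data. For Thy1hi cells against HFSCs they called 7 (edgeR) and 7 (DESeq2), where 1258 and 1625 of 17204 tested genes were lower. For Thy1neg cells against HFSCs they called 2 and 4, where 848 and 1188 genes were lower. With HFSC replicate 4 left out of the shared limma fit, 6 were called for DETCs against Thy1hi cells, where 21.2% of all tested genes were higher. With the replicate block, 4 members were called for Thy1hi against Thy1neg cells (3.19% of all tested genes lower) and 5 for DETCs against HFSCs (19.6% lower). It called 7 for DETCs against Thy1hi cells and 6 for DETCs against Thy1neg cells, where 3934 and 3611 of 17204 tested genes were higher. In the last 2 the numbers did not pair the samples by the rule (lowest same-number r -0.118 and -0.221). The block changed no other call.

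Directions reversed for Cd74 in DETCs against HFSCs, from 0.81 to -0.25 with edgeR, -0.25 with DESeq2, -0.51 with the replicate block, -0.74 and -0.67 with edgeR and DESeq2 without HFSC replicate 4, and from -0.69 to 1.47 over fits that left out 1 library. Cd74 in Thy1neg cells against HFSCs went from 0.28 to -0.81 with edgeR, -0.79 with DESeq2, -1.18 and -1.20 without HFSC replicate 4, and from -1.22 to 0.93 over left-out libraries. Cd74 in Thy1hi cells against HFSCs ranged from -2.03 to 0.12 over left-out libraries. Cd74 in Thy1hiYFP against Thy1hi cells, at -0.04, was 0.00 after rescaling, 0.19 with the replicate block and -0.26 to 0.19 over left-out libraries. H2-Aa in DETCs against Thy1neg cells, at 0.08, was -0.11 after rescaling, -0.07 after quantile normalization and -0.16 to 0.41 over left-out libraries. Ciita in DETCs against Thy1neg cells was -0.09 with the replicate block, and in Thy1hi against Thy1neg cells it ranged from -0.49 to 0.30 over left-out libraries. The cause was not tested. Itgax and Ciita had too few reads for small differences to be detectable.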
